A study of Homo sapiens with 18 samples.

Results

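Heat shock proteins and chaperonins are the protein-folding machinery of the cell, and their messenger RNAs were followed in a human melanoma cell line with and without an edited PCIF1 gene. The members were the protein-coding genes whose symbol starts with DNAJA, DNAJB, DNAJC, HSPA, HSPB, HSPH, HSP90, HSPD or HSPE, or is TCP1 or CCT followed by a digit, leaving out HSPA5. This rule found 69 of the 15258 genes in the deposited expression table. They comprised 3 HSP90 genes, 11 HSPA genes, 1 HSPH gene, 3 DNAJA, 9 DNAJB and 26 DNAJC genes, 4 genes with the HSPB prefix, 3 with the HSPD or HSPE prefix, and 9 of the TCP1 and CCT family. A further 16 annotated genes that match the rule, among them HSPA6, were not analysed here.

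The cells were MEL624, an established melanoma line, in 3 derivatives: a control line carrying a random single guide RNA in a wild-type background, and 2 clonal PCIF1 knockout lines, KO1 and KO2. Each derivative gave 3 input RNA-seq libraries, lettered A, B and C, which the submitters describe as biological replicates. The series also lists 9 libraries of RNA pulled down with an m6A antibody, which were not analysed here. Each knockout line is a single clone, and there is a single control line, so a p-value here speaks for the scatter among the libraries of these lines and says nothing of how other clones with the same edit would vary.

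PCIF1 is the enzyme that methylates the first transcribed adenosine next to the cap of messenger RNAs that begin with A. Chaperones act as relays. HSP70 proteins (HSPA) bind exposed stretches of unfolded protein in cycles driven by ATP, J proteins (DNAJA, DNAJB and DNAJC) bring clients and trigger the hydrolysis, and exchange factors such as HSPH1 reset the cycle. HSP90 proteins finish the folding of kinases and receptors, small heat shock proteins such as HSPB1 hold unfolded protein without using ATP, and chaperonins enclose a single protein in a barrel. HSPD1 with its lid HSPE1 is the barrel of mitochondria, and TCP1 with the CCT subunits is that of the cytosol, known for folding actin and tubulin. Many of these genes are switched on together by heat shock factor HSF1, which binds alternating units of GAA and TTC spaced by 2 bases, called a heat shock element.

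The promoters show which members carry such an element close to the start of the gene. Adjacent units read GAANNTTC or TTCNNGAA, and 3 units in a row were required, on either strand, in the 250 bases before a RefSeq start (GRCh38.p14). Of the 64 members with a RefSeq promoter window, 4 held one (6.25%), against 50 of 15345 protein-coding genes with 1 window each (0.326%) and 155 of all 35116 windows (0.441%). A list of 11 members treated as heat-inducible held HSPA1A, HSPA1B, HSPA8, HSPH1, DNAJB1, DNAJA1, HSPB1, HSP90AA1, HSP90AB1, HSPD1 and HSPE1. HSPA8 and HSP90AB1 among them are described as constitutive below. Of the 11, 3 held an element (27.3%), HSPA8 being 1 of these. The runs are given 5′ to 3′ in the direction of the gene, with the units in capitals, because they mark the members with a direct sequence match to the heat shock pathway.
HSPD1, chr2:197500061-197500090, minus strand: gcattTTCtgGAAagTTCtgGAAccgagcg
HSPA8 far element, chr11:123062343-123062372, minus strand: gagcttGAAagTTCcaGAAcgctgcggtga
HSPA8 near element, chr11:123062168-123062197, minus strand: ggccccTTCtgGAAggTTCtaagatagggt
HSP90AA1, chr14:102087109-102087138, minus strand: gggttcTTCcgGAAggTTCgggaggcttct
DNAJB6, chr7:157336867-157336896, plus strand: agccgaGAAccTTCgcGAAggtggggcggg
The HSPD1 run has 4 units and begins 245 bases before the HSPD1 start, in the stretch of 538 bases that separates the oppositely directed starts of HSPD1 and HSPE1. The HSPA8 runs begin 230 and 55 bases before its start. A match of letters is a description and was not measured as binding, and members without one may hold other forms of the element.

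The first transcribed base is the other sequence that bears on PCIF1. It is shown in capitals after the 20 bases that precede it, for 4 of the members described below. These are not the 4 with the largest changes.
DNAJC12, chr10:67838188-67838208, minus strand: gtaaacagccaatgagaggcA
HSPB1, chr7:76302653-76302673, plus strand: gcagccgagcccagcgccccG
HSPD1, chr2:197499840-197499860, minus strand: gtgtgcgccctgcactctgtC
HSPE1, chr2:197500359-197500379, plus strand: cgtgtcgccagggccggactG
Of these 4, DNAJC12 has an annotated A start. Other members with called changes also have one, such as HSPA12A (log2 fold change −0.89 in KO1), DNAJC9 (0.72 in KO2), DNAJC22 (−0.65 in KO2) and DNAJC1 (0.62 in KO2). Further called members start with another base, such as DNAJB5 (G, −0.55 in KO1), HSPE1-MOB4 (T, 0.55 in KO1) and DNAJC6 (G, −0.49 in KO1). The start bases are those of the annotation and were not measured in these cells.

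The libraries held between 7848089 and 11393206 reads on the listed genes. PCIF1 itself stood at 57.6 ± 3.84 TPM (transcripts per 1000000, mean ± SD, n = 3) in control, 24.0 ± 1.77 in KO1 and 60.3 ± 3.86 in KO2. It was lower in KO1 (log2 fold change −1.26 ± 0.074 (SE), adjusted p = 1.65e-06) and was not called in KO2 (0.07, 95% interval −0.10 to 0.23). The exact two-sided permutation test gave p = 0.1 for KO1, the smallest value that 3 against 3 libraries allow, and p = 0.5 for KO2. An edit can remove a protein without lowering its RNA, so the level in KO2 does not check that label. Of 7 markers fixed for the melanocyte lineage, MITF was among the listed genes (37.1, 26.3 and 50.02 TPM in control, KO1 and KO2). The other 6 (SOX10, PMEL, MLANA, TYR, DCT and TYRP1) were not. Of 4 epithelial markers, the keratins KRT8 and KRT18 were among the listed genes, and EPCAM and CDH1 were not. The keratins together gave between 851 and 1082 TPM over all libraries. Of 4 fibroblast markers, COL1A1 and LUM were listed, together at between 0.745 and 3.52 TPM, and COL3A1 and DCN were not. None of the 3 endothelial and 3 leukocyte markers was among the listed genes.

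Chaperones were among the most abundant messages of these cells. The 69 members together made up between 1.53% and 1.67% of all TPM in every library. In control, 22 members stood at 100 TPM or more, 31 between 10 and 100 TPM and 16 below 10 TPM, with a median of 37.8 TPM against 19.1 TPM for all tested genes. HSP90AB1 (2819 TPM), HSP90AA1 (2041 TPM) and HSPA8 (1971 TPM) ranked 19, 31 and 35 among all genes in control. The summed level of all members was 16030 ± 88.2 TPM in control, 16560 ± 123 in KO1 and 15960 ± 660 in KO2 (SD, n = 3). The KO1 libraries (16420 to 16670 TPM) all lay above control (15940 to 16110), and the KO2 libraries (15280 to 16600) ranged from below to above it. The classes did not move together. The HSPD and HSPE genes, whose neighbours are described below, summed to 936 TPM in control, 1417 in KO1 and 1358 in KO2. The HSP90 genes summed to 5497, 5417 and 5076 TPM, and the HSPA genes to 3018, 3125 and 2973 TPM.

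Between KO1 and control, 15 of the 68 tested members were higher (22.1%) and 6 were lower (8.82%), where a call is an adjusted p under 0.05 in limma over all tested genes. Over all 14512 tested genes, 20.2% were called higher and 14.1% lower in that comparison, so the members' share of higher calls lay close to the background. Between KO2 and control, 11 members were higher (16.2%) and 7 lower (10.3%), against 15.6% higher and 14.8% lower over all genes. The median log2 fold change of the members was 0.04 in KO1 and −0.01 in KO2, against 0.04 and 0.0099 for all tested genes. Most members moved little: 73.5% lay within 0.25 of control on the log2 scale in KO1 and likewise 73.5% in KO2, as did 60.9% of all genes in KO1 and 62.6% in KO2. The remaining member, CCT6B, had 1 to 5 reads per library and stood below the limit of 1 TPM for testing.

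These counts depended on the scaling, the test and the libraries used. With each library centred on its median, 14 members were higher and 9 lower in KO1. With limma-voom on the recovered reads, 14 were higher and 15 lower in KO1, and 11 were higher and 11 lower in KO2. With the running median of 51 neighbouring genes along the chromosome subtracted, 10 were higher and 12 lower in KO1, and 8 higher and 6 lower in KO2. Leaving out control replicate B lowered the higher calls in KO2 from 11 to 7. Shares over all tested genes are given for the main test only, so the counts in other settings have no background beside them. The median log2 fold change of all tested genes in KO1 itself moved, from 0.035 in the main test to −0.016 with limma-voom. Since both comparisons use the same 3 control libraries, their values are given side by side and no agreement between them is counted. In bulk RNA, less RNA per cell and fewer cells that make it cannot be told apart.

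**Figure D1:**
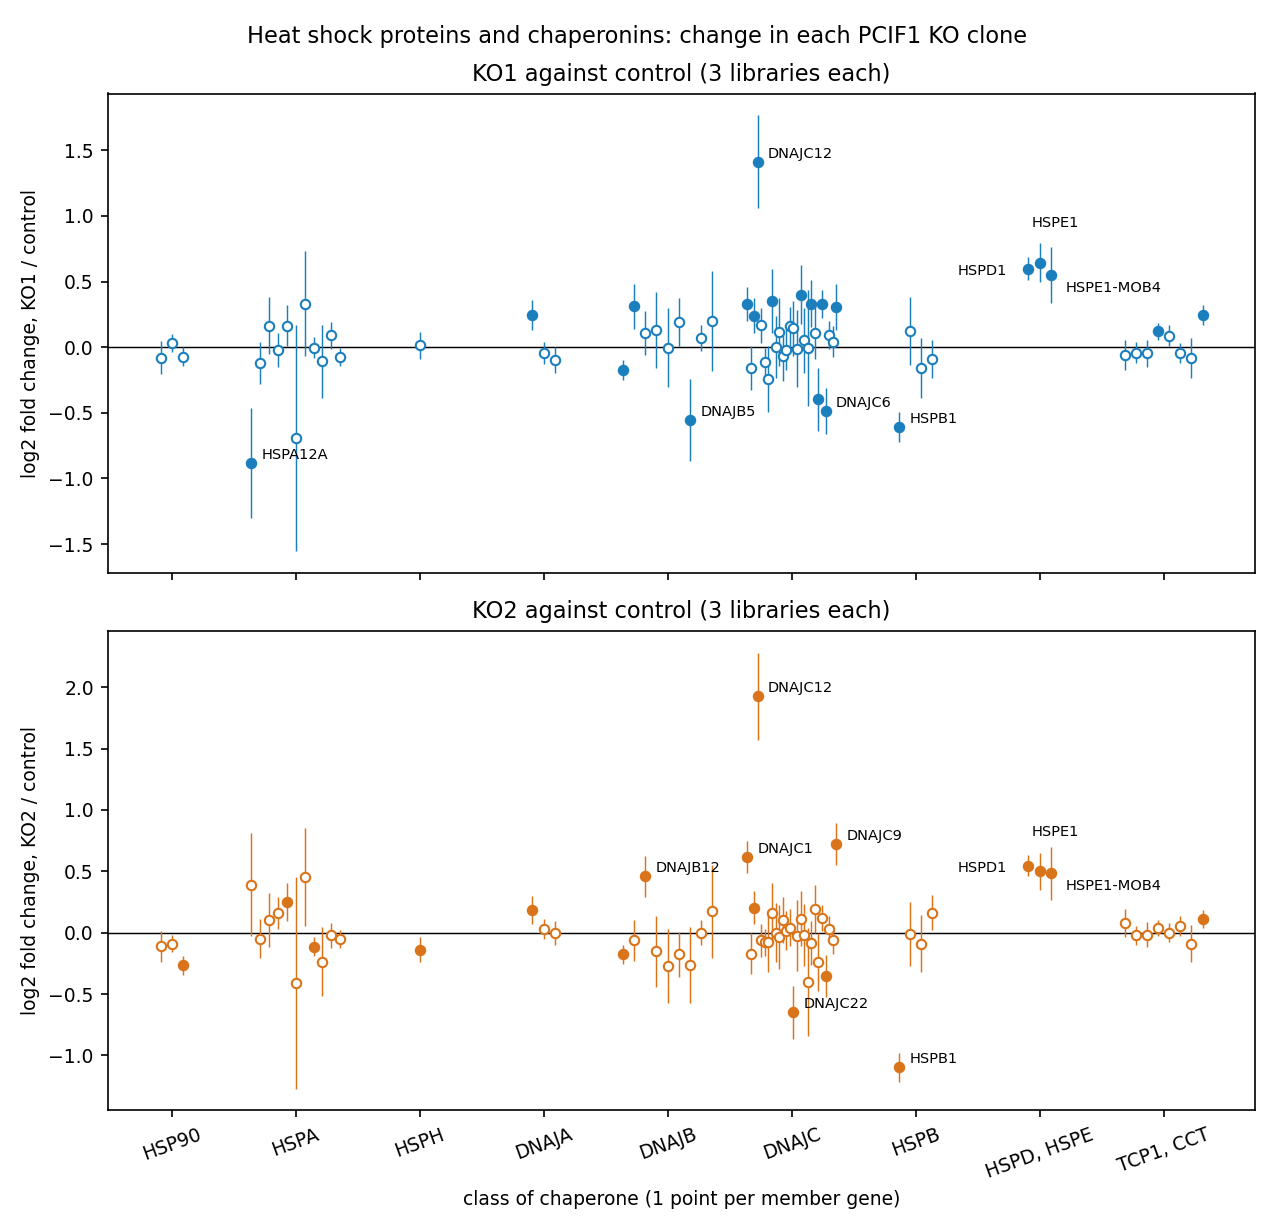
Log2 fold change (vertical axis) of each tested member in KO1 (top) and KO2 (bottom) against control, by class (horizontal axis), with 95% intervals and 3 libraries per line; filled points have an adjusted p under 0.05. Most points lie near 0, while DNAJC12, HSPD1 and HSPE1 lie above and HSPB1 below 0 in each panel.

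The mitochondrial chaperonin rose in each clone. HSPD1, which encodes the barrel subunit HSP60, stood at 768, 743 and 726 TPM in the control libraries, at 1110, 1143 and 1131 in KO1 and at 1097, 1035 and 1137 in KO2. Every knockout library lay above every control library. The log2 fold change was 0.60 ± 0.039 in KO1 (adjusted p = 3.74e-06) and 0.55 ± 0.039 in KO2 (adjusted p = 6.02e-06), or 1.51-fold and 1.46-fold. HSPE1, which encodes the lid HSP10, stood at 102, 96.8 and 105 TPM in control, at 146, 169 and 161 in KO1 and at 144, 132 and 153 in KO2. Its log2 fold changes were 0.64 ± 0.066 (adjusted p = 7.75e-05) and 0.50 ± 0.066 (adjusted p = 0.000332), again without overlap between knockout and control libraries. The read-through locus HSPE1-MOB4, which joins HSPE1 to the next gene, changed by 0.55 (adjusted p = 0.00191) and 0.48 (adjusted p = 0.00396). Its gene model overlaps those of HSPE1, HSPD1 and MOB4, and whether reads were counted by strand is unknown, so reads may have been shared among the 3 members. No difference between the clones was called for HSPD1 (KO2 minus KO1 −0.05, 95% interval −0.14 to 0.04) or HSPE1 (−0.14, −0.29 to 0.00).

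The genes around HSPD1 moved by as much as HSPD1 did. Of its 50 nearest tested genes on chromosome 2, 44 were called higher in KO1 and 38 in KO2, with median log2 fold changes of 0.54 and 0.49. MARS2, a mitochondrial methionyl-tRNA synthetase, changed by 0.75 in KO1 and 0.71 in KO2, and the splicing factor gene SF3B1 by 0.39 and 0.38. With the running median of neighbours subtracted, HSPD1 was left with 0.02 in KO1 (adjusted p = 0.699) and 0.09 in KO2 (adjusted p = 0.0918), and HSPE1 with 0.07 (adjusted p = 0.399) and 0.03 (adjusted p = 0.728). The calls of HSPD1, HSPE1 and HSPE1-MOB4 were thus lost relative to their stretch of the chromosome. The part of the stretch as a whole in the result was not tested.

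**Figure D2:**
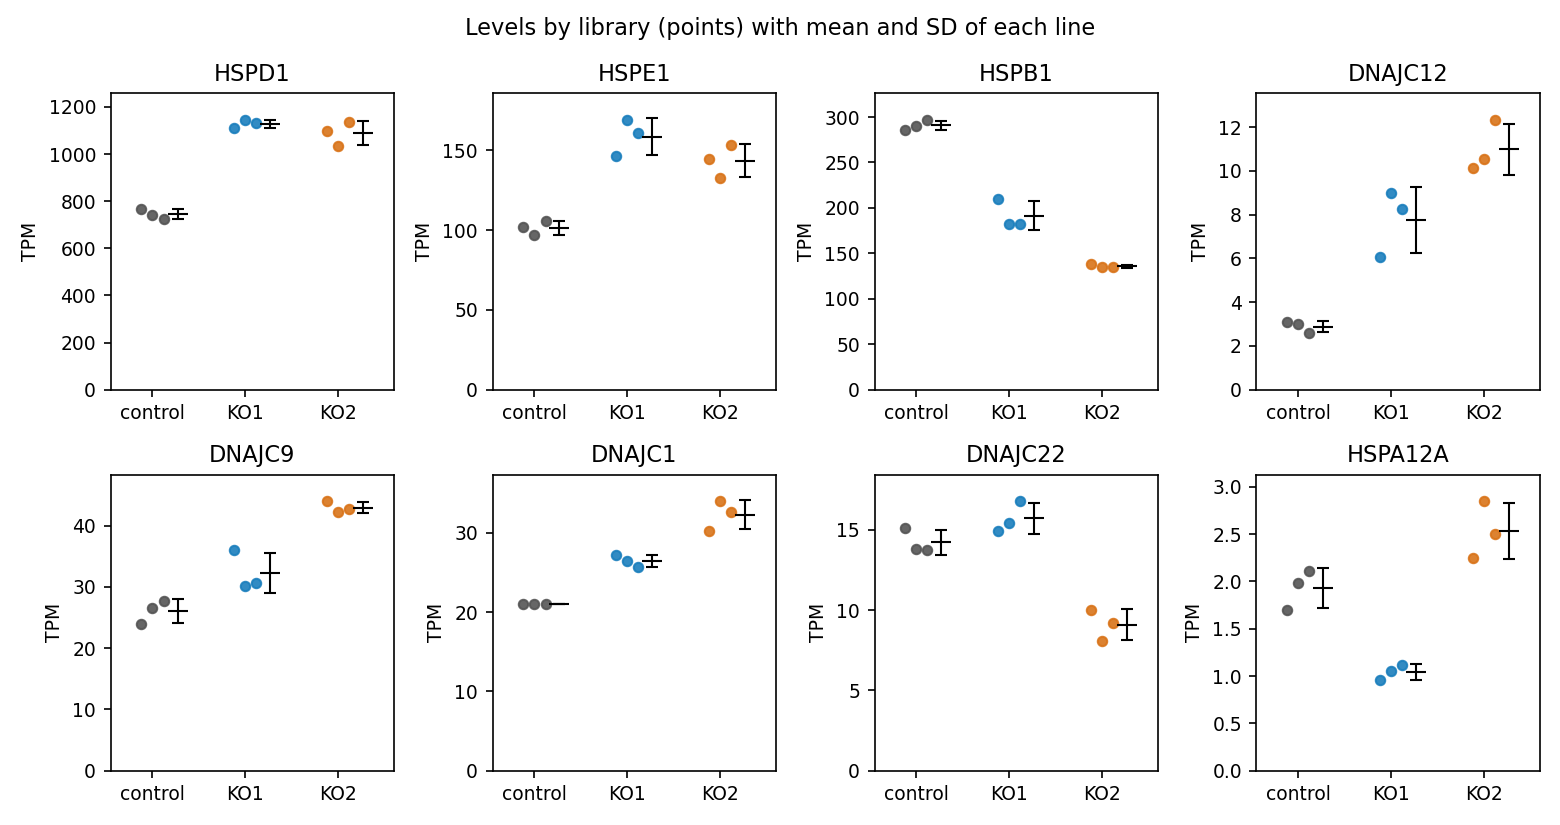
TPM (vertical axis, from 0) of 8 members in each of the 9 libraries (points), with mean and SD of the 3 libraries of a line (black bars). HSPD1 and HSPE1 stand higher and HSPB1 lower in every KO1 and KO2 library than in any control library, and DNAJC12 rises from about 3 TPM to between 6.07 and 12.3 TPM.

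HSPA9, the mitochondrial HSP70 known as mortalin, stood at 521 ± 8.7 TPM in control, 495 ± 10.8 in KO1 and 503 ± 12.6 in KO2 and was not called (log2 fold changes −0.07, adjusted p = 0.0988, and −0.05, adjusted p = 0.272). In KO1 it was called lower with limma-voom (−0.13, adjusted p = 0.00479), with median centring (−0.11, adjusted p = 0.0265) and with the neighbours subtracted (−0.13, adjusted p = 0.0251). Of 5 mitochondrial J proteins, DNAJC11 was called higher, by 0.24 in KO1 (adjusted p = 0.0125) and 0.20 in KO2 (adjusted p = 0.0284), and the other 4 were not called in either comparison (2 of them were lower in KO1 with limma-voom). The KO1 call of DNAJC11 was lost without control replicate B (adjusted p = 0.0517) and with the neighbours subtracted (0.14, adjusted p = 0.0998), and the KO2 call without control replicate A or B or KO2 replicate A or B (adjusted p from 0.0547 to 0.107). Of 8 mitochondrial chaperones and proteases outside the families, none was higher in either clone (limma, also 0 at an unadjusted p under 0.05 and 0 with limma-voom), 3 were lower in KO1 (37.5%, against 14.1% of all tested genes) and 1 in KO2 (12.5%, against 14.8%). These were AFG3L2, a protease subunit of the inner membrane (−0.62 in KO1 and −0.55 in KO2, called in both, beside neighbour medians of −0.46 and −0.50), HTRA2, a protease of the space between the membranes (−0.34 and 0.07), and TRAP1, the mitochondrial HSP90 (−0.16 and 0.00).

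HSPB1 was the most strongly lowered member in KO2. This gene encodes HSP27, a small heat shock protein abundant in many tumour cells. Its level was 286, 290 and 296 TPM in control, 210, 182 and 183 in KO1 and 138, 135 and 135 in KO2, from between 486 and 1520 reads per library. The 3 lines did not overlap. The log2 fold change was −0.61 ± 0.052 in KO1 (adjusted p = 2.4e-05) and −1.10 ± 0.052 in KO2 (adjusted p = 3.94e-07), which is 0.656-fold and 0.467-fold of control. KO2 lay below KO1 by a further −0.49 on the log2 scale (adjusted p = 0.00012).

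The fall of HSPB1 was not shared by most genes of its stretch of chromosome 7 (gene at 76302673 to 76304295, plus strand, hg38). The median log2 fold change of its 50 nearest tested genes was 0.08 in KO1 and 0.11 in KO2. At least as large a fall was seen in 5 of the 50 in KO1 and in none in KO2. Of the 50, 10 were called lower and 9 higher in KO1, and 9 lower and 8 higher in KO2. ZP3 (−1.36 in KO1 and −0.75 in KO2) and TMEM120A (−0.43 and −0.46) were called lower in each clone. The other small heat shock protein tested, HSPB8, was not called (11.9 TPM in control). The 2 further genes with this prefix are not small heat shock proteins: HSPBP1 is an exchange factor of HSP70, and HSPBAP1 binds HSPB1. HSPBP1 stood at 158 ± 3.41 TPM in control, 149 ± 9.52 in KO1 and 178 ± 15.8 in KO2. In the main test it was called between the clones (KO2 minus KO1 0.26, adjusted p = 0.0149) but not against control. The call between the clones was lost without KO1 replicate C (adjusted p = 0.0607). With the neighbours subtracted, HSPBP1 was called lower in KO1 than in control (−0.14, adjusted p = 0.0297). BAG3, a partner that links HSPB proteins to HSP70, was higher in each clone. It stood at 169, 177 and 173 TPM in control, 265, 244 and 249 in KO1 and 275, 259 and 241 in KO2 (log2 fold changes 0.55, adjusted p = 4.23e-05, and 0.58, adjusted p = 2.26e-05). The BAG3 gene lies on chromosome 10 beside neighbours with medians of 0.0061 in KO1 and 0.32 in KO2.

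**Figure D3:**
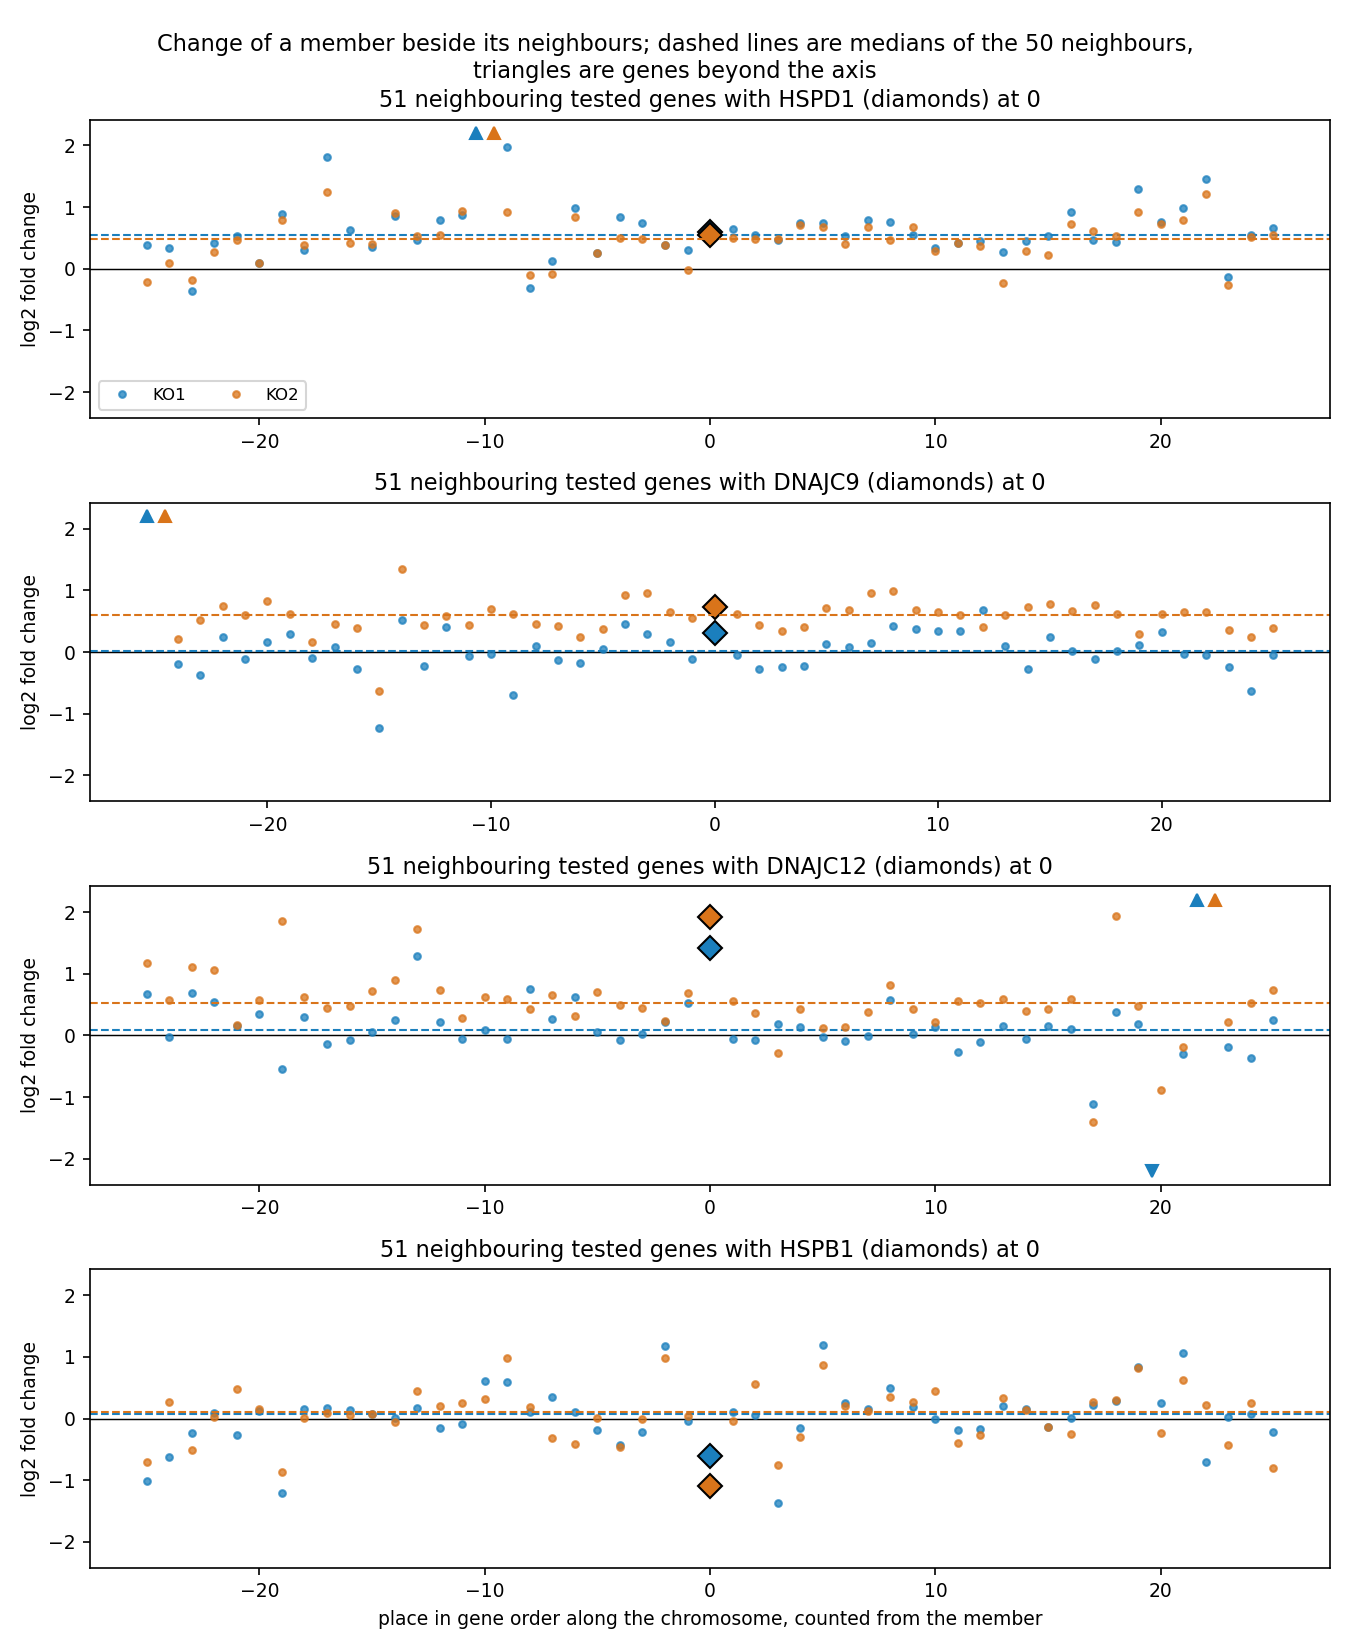
Log2 fold change (vertical axis) of 51 neighbouring tested genes in chromosomal order (horizontal axis) around HSPD1, DNAJC9, DNAJC12 and HSPB1, in KO1 (blue) and KO2 (orange); diamonds mark the member, dashed lines the median of the 50 others, and triangles genes beyond the axis limit. HSPD1 lies close to the medians of its neighbours (0.54 and 0.49), DNAJC9 close to that in KO2 (0.61), and DNAJC12 and HSPB1 far from theirs.

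DNAJC12 showed the greatest increase of all members, from a low level. It encodes a J protein that helps fold the aromatic amino acid hydroxylases, which make tyrosine and the precursors of dopamine and serotonin. Its level was 3.09, 2.99 and 2.58 TPM in control, 6.07, 8.98 and 8.25 in KO1 and 10.1, 10.5 and 12.3 in KO2. These values rest on 14 to 21 reads per control library, 32 to 55 in KO1 and 49 to 74 in KO2. The lines did not overlap, and the log2 fold change was 1.41 ± 0.16 in KO1 (adjusted p = 0.000134) and 1.93 ± 0.16 in KO2 (adjusted p = 1.46e-05), or 2.66-fold and 3.8-fold. The difference between the clones (0.51, adjusted p = 0.0353) was lost without KO1 replicate A or C or any of the KO2 libraries (adjusted p from 0.0538 to 0.113). With the neighbours subtracted it fell to 0.08 (adjusted p = 0.752), while the calls against control stood at 1.32 in KO1 and 1.39 in KO2.

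DNAJC12 lies on chromosome 10, where a long stretch was higher in KO2. The 50 nearest tested genes of DNAJC12 had a median log2 fold change of 0.09 in KO1 and 0.53 in KO2, with 1 of the 50 as high as DNAJC12 in KO1 and 2 in KO2. DNAJC9, a J protein that also chaperones histones H3 and H4, stood at 24.0, 26.6 and 27.7 TPM in control, 36.0, 30.2 and 30.6 in KO1 and 43.97, 42.2 and 42.7 in KO2. Its log2 fold change was 0.30 in KO1 (adjusted p = 0.0136) and 0.72 in KO2 (adjusted p = 8.93e-05), while its neighbours had medians of 0.02 and 0.61. In KO2 the call of DNAJC9 was lost once the neighbours were subtracted (0.16, adjusted p = 0.226). Its gene model overlaps that of FAM149B1 on the other strand.

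DNAJB12, a J protein of the endoplasmic reticulum membrane on the same chromosome, followed the stretch as well. It stood at 29.2, 25.01 and 27.0 TPM in control, 31.2, 26.9 and 29.3 in KO1 and 36.5, 36.2 and 38.9 in KO2. The log2 fold change was 0.46 in KO2 (adjusted p = 0.00122) and 0.11 in KO1, where it was not called, and its neighbours had a median of 0.60 in KO2. HSPA12A, an atypical HSP70 relative further along chromosome 10, differed between the clones more than any other member. It was measured at 1.699, 1.98 and 2.12 TPM in control, 0.954, 1.06 and 1.12 in KO1 and 2.25, 2.85 and 2.504 in KO2. These values rest on 56 to 65 reads per control library, 28 to 36 in KO1 and 67 to 84 in KO2. HSPA12A was lower in KO1 (−0.89, adjusted p = 0.00525) and not called in KO2 (0.39, 95% interval −0.03 to 0.81). With limma-voom it was called higher in KO2 (0.38, adjusted p = 0.043). It was higher in KO2 than in KO1 (1.28, adjusted p = 0.00088), beside neighbour medians of 0.02 in KO1 and 0.35 in KO2.

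DNAJC1, also on chromosome 10 but outside that stretch, rose beside neighbours with medians near 0. This J protein spans the membrane of the endoplasmic reticulum and faces ribosomes. It stood at 21.1, 21.0 and 21.1 TPM in control, 27.2, 26.5 and 25.7 in KO1 and 30.3, 34.0 and 32.6 in KO2, with no overlap between lines. The log2 fold change was 0.33 in KO1 (adjusted p = 0.00196) and 0.62 in KO2 (adjusted p = 3.55e-05), and KO2 exceeded KO1 by 0.29 (adjusted p = 0.0051). Its 50 nearest tested genes had medians of −0.06 and 0.02.

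Chaperones of the endoplasmic reticulum had calls in each comparison. Among 11 J proteins of this compartment, 5 were higher and none lower in KO1 (DNAJB11, DNAJC1, DNAJC3, DNAJC16 and DNAJC25), and 2 were higher and none lower in KO2 (DNAJC1 and DNAJB12). These are 45.5% higher in KO1, against 20.2% of all tested genes, and 18.2% in KO2, against 15.6%. Between the clones 2 were higher and 2 lower in KO2 than in KO1 (18.2% each, against 11.8% and 16.9%). At an unadjusted p under 0.05, 1 was lower in each clone, and with limma-voom 2 were lower in KO1 and 1 in KO2. DNAJB11, the soluble cofactor that delivers clients to the compartment's HSP70, stood at 22.0, 19.4 and 22.8 TPM in control, 26.2, 27.6 and 25.8 in KO1 and 19.7, 21.8 and 19.9 in KO2. It was higher in KO1 than in control (0.31, adjusted p = 0.0109) and lower in KO2 than in KO1 (−0.37, adjusted p = 0.00515). DNAJC3, a luminal cofactor also known as p58IPK, stood at 21.6, 23.4 and 21.2 TPM in control, 27.7, 31.0 and 24.98 in KO1 and 21.0, 20.2 and 21.2 in KO2. The KO1 libraries lay above both other lines (0.33 against control, adjusted p = 0.0109, and KO2 minus KO1 −0.42, adjusted p = 0.00411). With the neighbours subtracted the call against control was lost (0.21, adjusted p = 0.0683).

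HSP90B1, the HSP90 of the endoplasmic reticulum known as GRP94, fell in KO2. Its level was 635, 637 and 638 TPM in control, 594, 612 and 613 in KO1 and 536, 507 and 546 in KO2. The log2 fold change was −0.27 ± 0.034 in KO2 (adjusted p = 0.000248) and −0.07 in KO1 (adjusted p = 0.128; −0.12, adjusted p = 0.00582, with limma-voom and −0.11, adjusted p = 0.0497, with median centring), and KO2 lay below KO1 (−0.19, adjusted p = 0.00219), a call lost with the neighbours subtracted (−0.08, adjusted p = 0.0994). Of a partner list of 8 folding factors of this compartment, 3 were higher in KO1 than in control (37.5%, against 20.2% of all genes), 4 were lower in KO2 (50%, against 14.8%) and 6 were lower in KO2 than in KO1 (75%, against 16.9%). HSPA5, the compartment's HSP70 (BiP), changed by 0.30 in KO1 (adjusted p = 0.000138) and −0.12 in KO2 (adjusted p = 0.0233), with a difference of −0.41 between the clones (adjusted p = 2.33e-05). The lectin chaperone gene CANX changed by 0.29 and −0.08, and the disulfide isomerase gene PDIA4 by −0.09 and −0.42. HYOU1, the exchange factor of BiP, changed by 0.17 (adjusted p = 0.0239) and −0.32 (adjusted p = 0.00078).

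**Figure D4:**
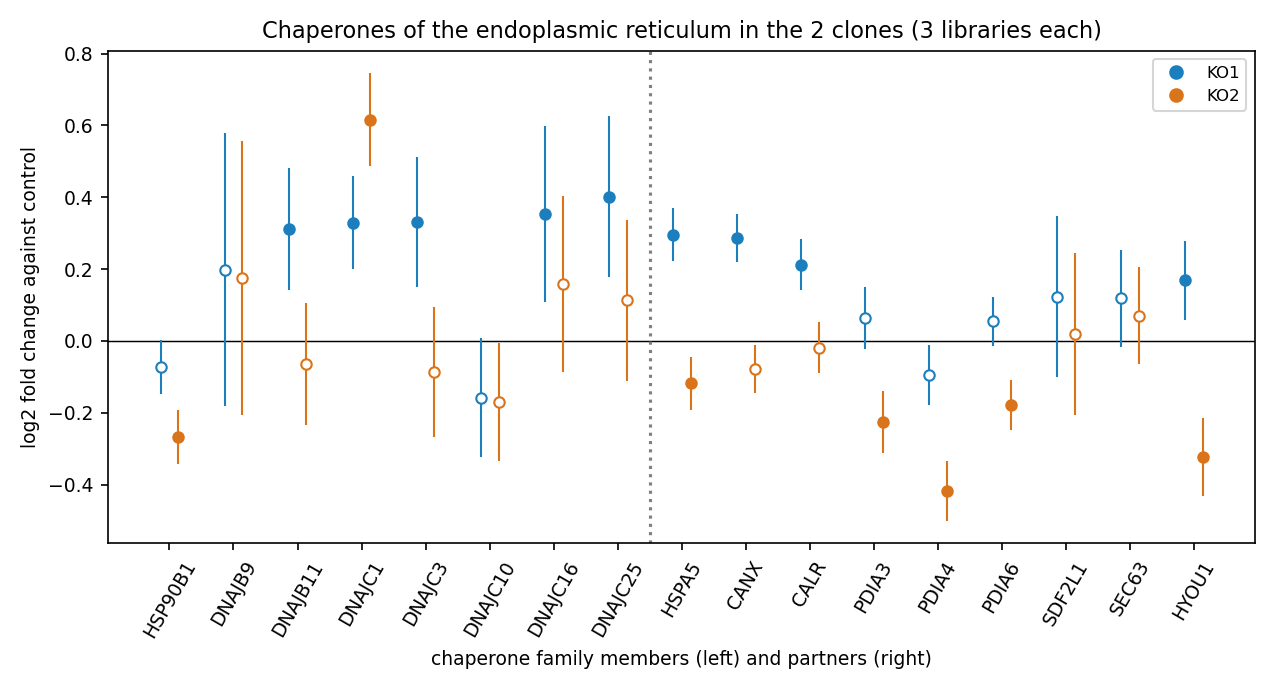
Log2 fold change against control (vertical axis) with 95% intervals for family members of the endoplasmic reticulum (left of the dotted line) and their partners (right), in KO1 (blue) and KO2 (orange), 3 libraries per line; filled points have an adjusted p under 0.05. KO1 lies above KO2 for DNAJB11, DNAJC3, HSP90B1, HSPA5, CANX, PDIA4 and HYOU1, and below it for DNAJC1. The J proteins DNAJB12, DNAJB14, DNAJC14 and DNAJC18 of this compartment are not drawn. KO1 lay below KO2 for DNAJB12 (0.11 and 0.46) and DNAJC14 (−0.12 and −0.08). It lay above KO2 for DNAJB14 (0.13 and −0.15) and DNAJC18 (0.11 and −0.03).

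The cytosolic HSP90 genes and HSPA8 were the 3 most abundant members, with log2 fold changes between −0.11 and 0.09 against control. HSP90AA1, the stress-inducible HSP90, stood at 2041 ± 40.4 TPM in control, 1930 ± 58.9 in KO1 and 1894 ± 170 in KO2 and was not called (−0.08 with a 95% interval of −0.21 to 0.05, and −0.11 with −0.24 to 0.01). With limma-voom it was called lower in KO1 (−0.13, adjusted p = 0.00999) and in KO2 (−0.13, adjusted p = 0.0151), the latter also without KO2 replicate C in the main test (−0.18, adjusted p = 0.00956). HSP90AB1, the constitutive HSP90, stood at 2819 ± 22.7, 2880 ± 32.5 and 2652 ± 85.7 TPM and was called between the clones but not against control (KO2 minus KO1 −0.12, adjusted p = 0.0186), a call lost without KO1 replicate A or C (adjusted p 0.0522 and 0.0654) and with each library centred on its median (−0.07, adjusted p = 0.172) or with the neighbours subtracted (−0.07, adjusted p = 0.234). In KO2 against control it was −0.09 (adjusted p = 0.0592), and it was called with limma-voom (−0.11, adjusted p = 0.00308), with a minimum of 5 TPM (−0.09, adjusted p = 0.0387) and without KO2 replicate A (−0.11, adjusted p = 0.0338). HSPA8, the constitutive HSP70, stood at 1971 ± 23.3, 2099 ± 39.4 and 1946 ± 138 TPM and was not called (0.09, −0.01 to 0.19, and −0.02, −0.12 to 0.08).

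The heat-inducible pair HSPA1A and HSPA1B shares nearly identical coding sequence, so reads could have been split between the copies. HSPA1A stood at 66.7, 65.1 and 74.0 TPM in control, 69.2, 62.9 and 70.7 in KO1 and 76.2, 76.6 and 76.9 in KO2. HSPA1B stood at 60.6, 60.4 and 72.0 TPM in control, 75.2, 67.8 and 72.6 in KO1 and 74.9, 76.5 and 77.7 in KO2. HSPA1B was called higher in KO2 (0.25, adjusted p = 0.0203), and HSPA1A was higher in KO2 than in KO1 (0.18, adjusted p = 0.0445). The call of HSPA1B was lost without control replicate A or B or KO2 replicate C (adjusted p from 0.0547 to 0.0782), and that of HSPA1A without KO1 replicate A or B or any of the KO2 libraries (adjusted p from 0.0659 to 0.148). HSPA1A in KO2 and HSPA1B in KO1, uncalled against control in the main test (both 0.16, adjusted p 0.0671 and 0.0958), were called higher in 2 settings. These were subtraction of neighbours (both 0.19, adjusted p 0.0302 and 0.044) and leaving out control replicate C (0.22 and 0.25, adjusted p 0.0224 and 0.00917).

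HSPH1 and HSPA4, HSP110 relatives that reset HSP70 by releasing its ADP, were slightly lower in KO2, and HSPA4L, a further relative, was not called (−0.23, adjusted p = 0.188). HSPH1 stood at 155, 144 and 138 TPM in control, 149, 147 and 145 in KO1 and 131, 129 and 136 in KO2 (log2 fold change in KO2 −0.14, adjusted p = 0.0444). HSPA4 stood at 307 ± 9.94, 306 ± 0.842 and 284 ± 8.72 TPM (−0.11 in KO2, adjusted p = 0.0352). KO2 also lay below KO1 in both genes (−0.15, adjusted p = 0.0303, for HSPH1 and −0.11, adjusted p = 0.0415, for HSPA4). These calls were fragile. For HSPH1 the KO2 call was lost without control replicate A or B or KO2 replicate A or B (adjusted p from 0.0886 to 0.135), and for HSPA4 without control replicate A or B or KO2 replicate B or C (adjusted p from 0.0566 to 0.11). Between the clones, both calls were lost without any single KO1 library or without KO2 replicate B, that of HSPH1 also without KO2 replicate A and that of HSPA4 also without KO2 replicate C (adjusted p from 0.0623 to 0.0841 and from 0.067 to 0.115). With median centring the HSPA4 call in KO2 was lost (−0.10, adjusted p = 0.0559), as were both calls between the clones (HSPH1 −0.11, adjusted p = 0.0982, and HSPA4 −0.06, adjusted p = 0.234). With the neighbours subtracted both HSPA4 calls were lost (−0.09, adjusted p = 0.0598, in KO2 and −0.03, adjusted p = 0.547, between the clones).

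Of the J partners of cytosolic HSP70, DNAJA1 was higher and DNAJB1 lower in each clone, and DNAJA2 was not called (−0.04 in KO1 and 0.03 in KO2). DNAJA1, a farnesylated J protein, stood at 408, 383 and 400 TPM in control, 461, 464 and 488 in KO1 and 454, 418 and 482 in KO2. It was higher in KO1 (0.25, adjusted p = 0.00472) and in KO2 (0.18, adjusted p = 0.0215), the latter call being lost without control replicate B or C or KO2 replicate A or C (adjusted p from 0.0504 to 0.0817). DNAJB1, the heat-inducible HSP40, stood at 286, 285 and 299 TPM in control, 259, 260 and 252 in KO1 and 251, 252 and 267 in KO2. It was lower in KO1 (−0.17, adjusted p = 0.00452) and in KO2 (−0.18, adjusted p = 0.00429) with every knockout library below every control library, which is 0.886-fold and 0.885-fold of control.

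Taken as a group, the 11 members of the heat-inducible list, constitutive HSPA8 and HSP90AB1 included, had calls in either direction. In KO1, 3 were higher (HSPD1, HSPE1 and DNAJA1) and 2 lower (HSPB1 and DNAJB1), with a median log2 fold change of 0.03 (27.3% and 18.2%, against 20.2% and 14.1% of all tested genes). In KO2, 4 were higher (HSPD1, HSPE1, HSPA1B and DNAJA1) and 3 lower (HSPB1, DNAJB1 and HSPH1), with a median of −0.02 (36.4% and 27.3%, against 15.6% and 14.8%). The calls of HSPD1 and HSPE1 among these were lost with the neighbours subtracted, as given above. Of the members with a heat shock element in the promoter window, HSPD1 was called in each comparison with control and HSPA8, HSP90AA1 and DNAJB6 in neither in the main test. HSF1 stood at 72.1, 82.8 and 69.8 TPM (means of control, KO1 and KO2) and was called higher in KO1 (0.20, adjusted p = 0.0129), HSF2 was lower in KO1 (−0.44, adjusted p = 0.00883), and HSBP1, a binding partner of HSF1, was higher in KO2 (0.32, adjusted p = 0.00416).

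Further J proteins have specialised duties. DNAJC6, the neuronal auxilin that helps uncoat clathrin vesicles, stood at 22.4, 23.2 and 21.3 TPM in control, 14.8, 15.9 and 17.1 in KO1 and 18.2, 18.0 and 16.2 in KO2. It was lower in KO1 (−0.49, adjusted p = 0.00111) and in KO2 (−0.35, adjusted p = 0.00688), without overlap with control. DNAJC5, the cysteine string protein of secretory vesicles, was 85.4, 81.8 and 89.2 TPM in control, 110, 102 and 110 in KO1 and 93.0, 95.4 and 89.9 in KO2 (0.33 in KO1, adjusted p = 0.000656). DNAJC13, a J protein of endosomes, was 44.01 ± 2.31, 49.4 ± 2.73 and 42.1 ± 1.93 TPM, and was lower in KO2 than in KO1 (−0.23, adjusted p = 0.0197). That call was lost without KO1 replicate B or KO2 replicate C (adjusted p 0.0727 and 0.0619), with median centring (−0.18, adjusted p = 0.0517) and with the neighbours subtracted (−0.16, adjusted p = 0.0972). It was called in neither clone against control.

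DNAJC22 was called lower in KO2 and not in KO1. It stood at 15.1, 13.8 and 13.7 TPM in control, 14.9, 15.4 and 16.8 in KO1 and 9.98, 8.09 and 9.22 in KO2. The log2 fold change was −0.65 in KO2 (adjusted p = 0.000616) and 0.14 in KO1 (95% interval −0.07 to 0.35), and the clones differed by −0.79 (adjusted p = 0.000274). The cytosolic J protein DNAJB5 was called lower in KO1 (5.88 ± 0.467 TPM in control, 4.02 ± 0.516 in KO1 and 4.91 ± 0.49 in KO2, −0.55, adjusted p = 0.0125). DNAJB4, its close relative, was lower in KO2 than in KO1 (14.3 ± 0.295 against 18.6 ± 1.72 TPM, −0.37, adjusted p = 0.00797).

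Thinner evidence stood behind 3 calls in KO1. DNAJC25, whose gene model overlaps the read-through locus DNAJC25-GNG10, stood at 16.9, 12.9 and 13.8 TPM in control and 20.0, 19.8 and 17.7 in KO1 (0.40, adjusted p = 0.012). DNAJC16, a J protein of the endoplasmic reticulum, stood at 9.03, 8.04 and 6.91 TPM in control and 9.90, 10.6 and 9.99 in KO1 (0.35, adjusted p = 0.0309). Its call was lost without control replicate B or C or any of the KO1 libraries (adjusted p from 0.0583 to 0.103). DNAJC4, whose gene model overlaps NUDT22 on the same strand, stood at 13.5, 12.9 and 12.3 TPM in control and 10.1, 9.24 and 10.1 in KO1 (−0.40, adjusted p = 0.0171), a call lost without control replicate A or KO1 replicate B (adjusted p 0.0564 and 0.0585). DNAJC8, the most abundant DNAJC gene in control and a partner of the splicing machinery, was not called (138 ± 3.48, 142 ± 6.73 and 133 ± 8.65 TPM).

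The cytosolic chaperonin held a nearly constant summed level. Its ring is built from 8 different subunits in equal number, yet the messages differed 3.22-fold in level in control, from 242 ± 8.97 TPM for TCP1 to 779 ± 23.8 for CCT7 (SD, n = 3). Between these lay CCT4 (676 ± 40.1), CCT3 (672 ± 11.5), CCT2 (512 ± 6.12), CCT6A (479 ± 15.3), CCT5 (403 ± 3.24) and CCT8 (329 ± 4.09). The libraries of CCT4 and CCT3 overlapped, while those of the other neighbours in this order did not. The summed level of the family was 4091 ± 56.1 TPM in control, 4097 ± 51.4 in KO1 and 4143 ± 163 in KO2.

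Of the 8 tested subunit genes, TCP1 and CCT5 were called higher in KO1 and TCP1 in KO2, and none was called lower (limma, also 0 at an unadjusted p under 0.05). With limma-voom, CCT3 (−0.09, adjusted p = 0.0455) and CCT7 (−0.09, adjusted p = 0.0399) were called lower in KO1, and none was called lower in KO2. With the neighbours subtracted, CCT2 was called lower in KO1 (−0.13, adjusted p = 0.0454). Between the clones, limma-voom called CCT2 (0.17, adjusted p = 0.0033) and CCT7 (0.13, adjusted p = 0.0051) higher in KO2, as did median centring. Without KO2 replicate C, CCT6A was called lower in KO2 than in KO1 (−0.11, adjusted p = 0.0489). TCP1 stood at 252, 238 and 235 TPM in control, 288, 287 and 284 in KO1 and 262, 259 and 261 in KO2. Its log2 fold change was 0.25 in KO1 (adjusted p = 0.000409) and 0.11 in KO2 (adjusted p = 0.0321), and KO2 lay below KO1 (−0.14, adjusted p = 0.0124). The KO2 call was lost without control replicate B or C or any of the KO2 libraries (adjusted p from 0.0511 to 0.11) and with limma-voom (0.09, adjusted p = 0.0756), that between the clones was lost with median centring (−0.09, adjusted p = 0.063) and with the neighbours subtracted (−0.06, adjusted p = 0.263), and the gene model overlaps ACAT2 on the other strand. CCT5 stood at 399, 406 and 403 TPM in control and 440, 432 and 442 in KO1 (0.12, adjusted p = 0.0095), beside a median of 0.14 for its 50 nearest tested genes, and its call was lost with median centring (0.08, adjusted p = 0.0663) with limma-voom (0.07, adjusted p = 0.0906) and with the neighbours subtracted (−0.0082, adjusted p = 0.896). CCT2, CCT3, CCT4, CCT6A, CCT7 and CCT8 had log2 fold changes between −0.09 and 0.09 in both comparisons with control in the main test.

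**Figure D5:**
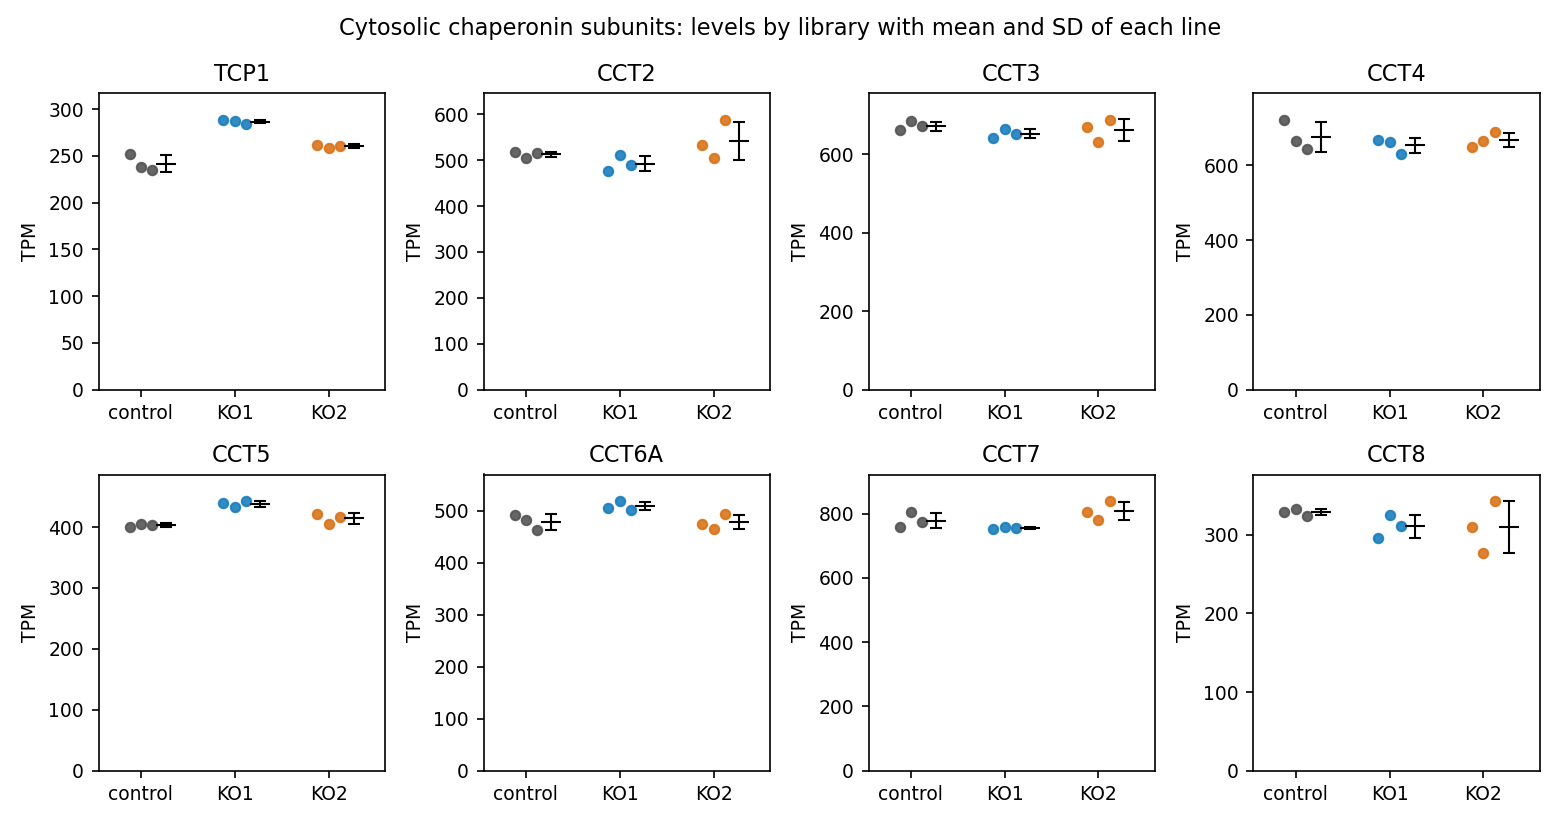
TPM (vertical axis, from 0) of the 8 tested cytosolic chaperonin subunits in each of the 9 libraries (points), with mean and SD of the 3 libraries of a line (black bars). TCP1 stands at 284 to 288 TPM in KO1 against 235 to 252 TPM in control, and the order of the subunits by level begins with CCT7 and ends with TCP1 in every line.

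Partners of the chaperonin, HSP90 and HSP70 were counted by list, beside 20.2% higher and 14.1% lower in KO1 and 15.6% and 14.8% in KO2 over all tested genes. Of 9 prefoldin and related genes, which hand unfolded actin and tubulin to the chaperonin, 2 were lower in KO1 (PFDN2, −0.27, and PFDN5, −0.26) and none was called in KO2 (limma; 2 were lower and 0 higher at an unadjusted p under 0.05, and likewise with limma-voom). Of 5 tubulin folding cofactors, TBCD was higher (0.36 in KO1 and 0.35 in KO2) and TBCB lower (−0.24 and −0.43) in each comparison, and TBCC was lower in KO1 (−0.28). Of 15 HSP90 co-chaperones, 1 was higher (6.67%) and 4 lower (26.7%) in KO1, and 2 were higher (13.3%) and 3 lower (20%) in KO2. The named ones are SUGT1, higher in KO1 (0.39), UNC45A, a myosin chaperone, lower in KO2 (−0.29), and STIP1, which links HSP70 to HSP90, lower in KO2 (−0.22). Of 11 HSP70 exchange factors and partners, 3 were higher in KO1 (BAG3, BAG5 and HYOU1), and in KO2 2 were higher (BAG3 and BAG1) and HYOU1 was lower.

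The comparison of the clones with each other tests where the 2 knockouts differ. Between KO2 and KO1, 7 members were higher (10.3%) and 12 lower (17.6%) in KO2, against 11.8% and 16.9% of all tested genes. With each library centred on its median, 10 were higher and 7 lower, with limma-voom 10 and 11, and with the neighbours subtracted 8 and 7. For these settings no share over all tested genes is given. The members with the widest gaps were HSPA12A (1.28), DNAJC22 (−0.79), DNAJC12 (0.51) and HSPB1 (−0.49).

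Members were also divided by the annotated first base of the transcript. Of the 33 tested members with an annotated A start, 7 were higher and 1 lower in KO1, and 5 were higher and 2 lower in KO2. Of the 35 with another start, 8 were higher and 5 lower in KO1, and 6 were higher and 5 lower in KO2. The median log2 fold change was 0.04 for A starts and 0.03 for other starts in KO1, and −0.02 and −0.0036 in KO2. Over all tested genes, 20.6% of A starts and 19.9% of other starts were called higher in KO1, and 15.8% and 15.5% in KO2. The shares called lower were 14.4% of A starts and 13.9% of other starts in KO1, and 15.8% and 14.1% in KO2.

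The members outside these descriptions were measured and not called. The 26 tested members that are not named by the rule on changes or roles had log2 fold changes from −0.69 (HSPA1L) to 0.33 (HSPA2) in KO1, from −0.41 (HSPA1L) to 0.46 (HSPA2) in KO2, and none was called in any comparison with limma. At an unadjusted p under 0.05, 1 was higher and 1 lower in each clone against control, and with limma-voom 4 were lower in KO1, 2 were lower in KO2 and 1 was higher in KO2 than in KO1. HSPA1L rests on 7 to 22 reads per library and has log2 fold changes with 95% intervals of −1.55 to 0.17 in KO1 and −1.27 to 0.45 in KO2.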

How the data were processed

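Input RNA-seq libraries of 3 MEL624 lines, 3 per line, were analysed from the authors' deposited table of log2 TPM values. The submitters' processing notes name build hg38 and the tools edgeR 3.12.1, featureCounts, HISAT2 2.0.4 and SAMtools 1.7, with no roles; annotation and strand setting are not given in the sources used. TPM was taken as 2 to the power of the deposited log2 value. Whole reads were recovered for 100% of genes (tolerance 1e-06). No use of molecular identifiers is stated, so reads may include copies of 1 molecule. Chi-square per degree of freedom between replicate libraries was 1.22 to 3.71, above counting noise. Limma-trend (limma 3.58.1, R 4.3.3) was fitted to all 9 libraries with 1 mean per line, over the 14512 genes averaging 1 TPM or more, with Benjamini-Hochberg adjustment over all of them; fold changes are given with SE. It was tested on simulated data. Symbols and coordinates came from GENCODE 44 (15138 of 15258 identifiers matched), and promoter windows from RefSeq. Exact permutation tests used scipy 1.17.1. Members and gene lists were chosen with earlier results of these data known. Named members were, in each comparison, the called ones with the 12 highest and 12 lowest changes, fixed core chaperones, and the most abundant gene of each class; up to 3 partners were named per list by size of change among those called, and any further ones were chosen after their values were seen. Windows of 50 neighbours, ranges of level and the bound of 0.25 were chosen after the data were seen. Alternatives were log2(TPM + 1), no filter, at least 5 TPM, median centring, a replicate block, limma-voom, subtraction of neighbours and leaving out each library.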

Additional observations from a re-analysis of the deposited data

Results flagged for a closer look

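The 2 clones differed from each other in 19 members named above, tested as KO2 minus KO1 in the same limma fit (adjusted p under 0.05, log2 scale). Of the tested members, 10.3% were higher and 17.6% lower in KO2, close to the 11.8% and 16.9% of all tested genes. Higher in KO2 were HSPA12A (1.28), DNAJC12 (0.51), DNAJC9 (0.42), DNAJB12 (0.35), DNAJC1 (0.29), HSPBP1 (0.26) and HSPA1A (0.18). The first 5 of these lie on chromosome 10. Lower in KO2 were DNAJC22 (−0.79), HSPB1 (−0.49), DNAJC3 (−0.42), DNAJB11 (−0.37), DNAJB4 (−0.37), DNAJC13 (−0.23), DNAJC5 (−0.21), HSP90B1 (−0.19), HSPH1 (−0.15), TCP1 (−0.14), HSP90AB1 (−0.12) and HSPA4 (−0.11). The calls of DNAJC12, HSPA1A, HSPBP1, DNAJC13, HSPH1, HSP90AB1 and HSPA4 were lost on leaving out 1 library or another. With 1 clone each, a difference between clones and an effect of the edit cannot be told apart.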

How the results depend on the processing

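Over the 58 calls of named members, log2(TPM + 1) and no filter kept all 58, and a mean of at least 5 TPM kept the 55 it could test. Median centring ended 7, limma-voom 3, the replicate block 7, and subtraction of neighbours 15. Subtraction of neighbours also turned 5 around: CCT5 (−0.0082) and HSPE1-MOB4 (−0.034) in KO1, DNAJB12 in KO2 (−0.090) and between the clones (−0.19), and DNAJC9 between the clones (−0.16). Members lower in KO1 numbered 6, and 15 with limma-voom and 12 with neighbours subtracted; those lower in KO2 numbered 7, and 11 with limma-voom. Between the clones 12 were lower, and 7 with median centring and 7 with neighbours subtracted. No share over all tested genes stands beside the counts of these alternatives. Leaving out 1 library gave 13 to 15 higher and 5 to 6 lower in KO1, 7 to 11 higher and 5 to 8 lower in KO2, and 5 to 7 higher and 9 to 12 lower between the clones; it ended 57 of 348 single calls. With the replicate block, 14 members were higher and 7 lower in KO1, 10 and 5 in KO2, and 6 and 10 between the clones. Libraries of the same letter did not deviate together (correlations −0.07 to 0.04), so the letters give no pairing. PCIF1 kept its call in KO1 under every alternative that was run. Of 68 values without a call, limma-voom called 10. Read depth limits members of low level, such as CCT6B.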
